A study of Mus musculus with 6 samples.

Results

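The ADAMTS proteases are secreted zinc metalloproteinases that carry thrombospondin-like repeats and cut proteins of the extracellular matrix. A set of 10 genes of this family was followed here: Adamts1, Adamts2, Adamts4, Adamts5, Adamts8, Adamts9, Adamts10, Adamts12, Adamts15 and Adamts16. They were taken by gene name, and all 10 were found among the 54532 genes of the count table. A further 9 ADAMTS protease genes in the table served as relatives for comparison.

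The libraries came from distal colon of mice given 3% dextran sulfate sodium (DSS, 36 to 50 kDa) in drinking water for 7 days. DSS injures the colonic epithelium and causes colitis, and no library of an untreated mouse enters these comparisons. In 3 libraries the genotype label is Itgbl1 -/- (KO 1 to KO 3) and in 3 it is WT (WT 1 to WT 3). The labels used here do not say how the allele was made, nor the strain, sex or age, nor whether each library is a separate animal, so p-values measure only the spread between these samples.

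Most ADAMTS enzymes are made as inactive precursors whose prodomain is cut off by furin-like convertases, and their activity in tissue is limited by the inhibitor TIMP3 and by uptake through the receptor LRP1. One branch, with ADAMTS1, ADAMTS4, ADAMTS5, ADAMTS8, ADAMTS9 and ADAMTS15, cuts the large hyaluronan-binding proteoglycans aggrecan and versican. ADAMTS2 trims the amino-terminal propeptide from fibrillar procollagens. ADAMTS10 binds fibrillin microfibrils, and ADAMTS12 cuts cartilage oligomeric matrix protein (COMP).

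The catalytic centre that defines the family is shown first as the coding bases of its zinc-binding signature, because it is what makes these genes proteases. The signature is histidine, glutamate, any 2 residues, histidine, any 2, then glycine, asparagine or serine, any 2 and histidine. It was found once in the longest complete coding transcript of each of the 10 genes, and in 76 of 21549 genes with such a transcript (0.353%, GENCODE M21 on GRCm38). Capitals mark the codons of the 3 histidines and the glutamate, in 33 bases written 5′ to 3′ on the coding strand. The 6 genes of the proteoglycan-cutting branch read as follows.
Adamts1: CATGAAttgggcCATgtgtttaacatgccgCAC
Adamts4: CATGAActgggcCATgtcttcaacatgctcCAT
Adamts5: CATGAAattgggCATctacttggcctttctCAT
Adamts8: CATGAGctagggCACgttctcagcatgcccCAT
Adamts9: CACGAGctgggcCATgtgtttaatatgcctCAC
Adamts15: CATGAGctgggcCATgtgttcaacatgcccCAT
The other 4 genes read as follows.
Adamts2: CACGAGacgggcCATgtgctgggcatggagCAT
Adamts10: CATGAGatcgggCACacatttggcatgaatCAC
Adamts12: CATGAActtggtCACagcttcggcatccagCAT
Adamts16: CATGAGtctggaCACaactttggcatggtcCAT
Across these 33 bases the closest genes were Adamts4 and Adamts15, with 30 identical bases, and the most distant pairs, Adamts9 with Adamts12 and with Adamts16, shared 17. Adamts1 shared 28 of the 33 bases with Adamts9 and 28 with Adamts15.

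Total counts were 13326970 to 17465473 in the libraries labelled knockout and 16800399 to 18321389 in those labelled wild-type. Itgbl1 itself had 12, 4 and 10 reads in KO 1 to KO 3 and 19, 6 and 5 reads in WT 1 to WT 3, a ratio of 0.878 with a 95% interval of 0.250 to 3.08, so these counts do not show the loss that the label names. The deleted part of the gene is not described in the labels, and directions below are between labels. Epithelial markers stood far apart among libraries: the 7 markers summed to 919, 6406 and 44.6 CPM in KO 1, KO 2 and KO 3, against 12152, 15176 and 12508 CPM in WT 1, WT 2 and WT 3. The 6 genes chosen to mark colon identity summed to 16.6 to 2504 CPM under the knockout label and 3922 to 5148 CPM under the wild-type label, and Cdx2 was at 0.0777 CPM in KO 3. KO 3 also had 12.8% mitochondrial counts, against 3.53 to 4.88% in the other libraries. In whole tissue, fewer cells of a type and less RNA per cell cannot be told apart.

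Of the 10 genes, 9 had enough reads to be tested. Of the 9, 8 had a higher estimate under the knockout label, as had 53.1% of all genes tested. Among the 9 tested members, the largest differences were in the proteoglycan-cutting branch. Adamts1, Adamts9, Adamts5 and Adamts4 had estimates 4.39 to 6.89 times as high under the knockout label, while their relative Adamts15 was at 0.337 times. Adamts7, a COMP-cutting relative outside the 10 genes, had an estimate 5.64 times as high. Adamts8, Adamts10 and Adamts12 had estimates 1.28 to 1.31 times as high, with 95% intervals that include 1. The 95% interval of Adamts4, 0.859 to 22.4 for the ratio, also includes 1. With edgeR's quasi-likelihood test and Benjamini-Hochberg adjustment over 16861 genes, 0 of the 9 passed 0.05, as did 0 of all genes tested (0%). DESeq2 called 3 higher, against 4.02% of all genes it adjusted, and 1 lower, against 6.45%. At an unadjusted p under 0.05 edgeR had 4 members higher, against 11.8% of all genes tested, and 1 lower, against 12.3%. Those 4 were Adamts1, Adamts5, Adamts2 and Adamts9, and the lower one was Adamts15. The median log2 ratio of the 9 was 1.10, and that of all genes tested was 0.06. Without WT 2 the higher count at an unadjusted p under 0.05 was 2 (Adamts1 and Adamts5), against 5.58% of the genes tested then, and the lower count was 1, against 7.71%. Without both KO 3 and WT 2 the higher count was 2, against 4.88% of the genes tested then, and the lower count was 0, against 7.47%.

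**Figure D1:**
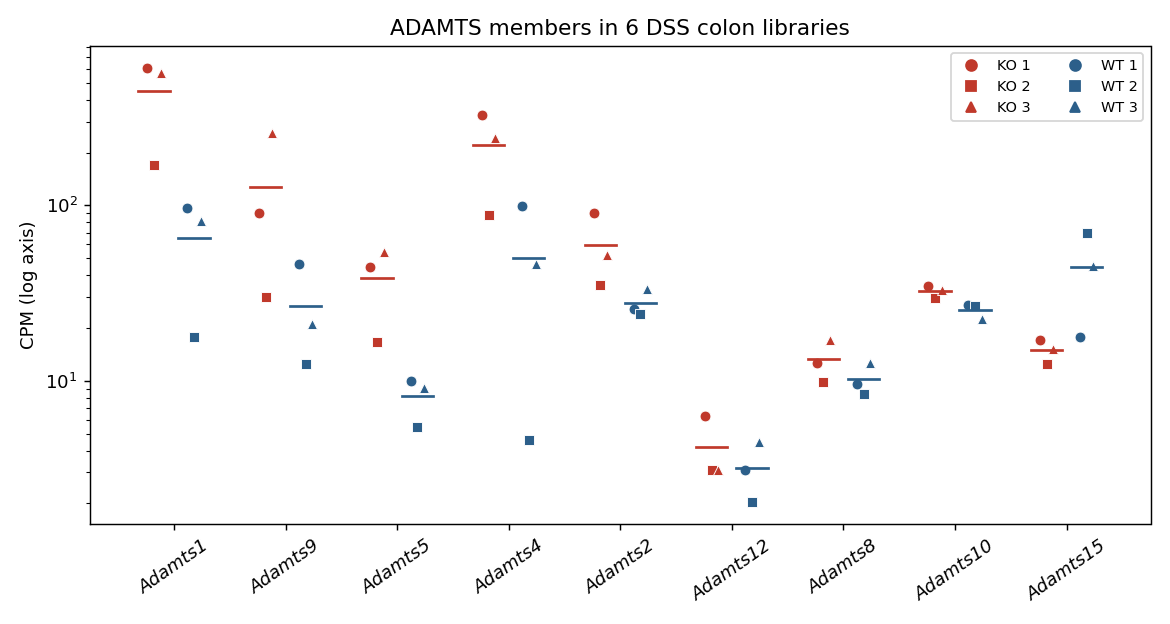
CPM of the 9 tested ADAMTS genes on a log axis, with 1 point per library (KO red, left, and WT blue, right; circle, square and triangle for replicates 1, 2 and 3) and a line at each group's mean. For Adamts1, Adamts5, Adamts2 and Adamts10 all KO points lie above all WT points, for Adamts15 all lie below, and KO 2 is the lowest KO point for every gene shown (almost level with KO 3 for Adamts12).

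Adamts1 was the most abundant member under the knockout label. Its protein cuts versican and aggrecan and is made by stromal and vascular cells in injury and inflammation. Adamts1 (ENSMUSG00000022893, chromosome 16, 85793827 to 85803113, minus strand, GRCm38) was at 609.8, 169.2 and 566.8 CPM in KO 1, KO 2 and KO 3, against 96.2, 17.7 and 81.5 CPM in WT 1, WT 2 and WT 3. Every library labelled knockout was above every wild-type library, with KO 2 and WT 2 the lowest of their labels. The group means were 449 ± 243 and 65.1 ± 41.7 CPM (SD, n = 3 each, knockout label first). The log2 ratio was 2.78 ± 0.75 (SE), with a 95% interval of 2.02 to 23.5 for the ratio (edgeR quasi-likelihood, adjusted p = 0.111). It passed with DESeq2 (adjusted p = 0.00197) and without KO 2 (0.0421). The fit without KO 2 called 460 higher and 1353 lower genes of 17449 tested.

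Adamts5 encodes the main aggrecan-cutting protease of mouse cartilage. It lies next to Adamts1 on chromosome 16 (ENSMUSG00000022894, 85856173 to 85901828, minus strand), with 53.1 kb and no other protein-coding gene of the table between them. Adamts5 was at 44.7, 16.5 and 54.5 CPM in KO 1, KO 2 and KO 3, against 9.92, 5.44 and 9.14 CPM in WT 1, WT 2 and WT 3. The labels did not overlap, and the lowest library of each was again KO 2 and WT 2. Its log2 ratio was 2.24 ± 0.49 (SE), the smallest p of the 10 genes (edgeR quasi-likelihood, adjusted p = 0.0975). It passed with DESeq2 (adjusted p = 0.00182), with limma-voom and quality weights (0.0295) and without KO 2 (0.0180). The weighted voom fit called 376 higher and 1019 lower genes of 16861, and the fit without KO 2 460 and 1353 of 17449.

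Adamts4, the inducible aggrecan-cutting relative, spread most within the wild-type label. Adamts4 (ENSMUSG00000006403, chromosome 1, 171250421 to 171260637, plus strand) was at 329.7, 88.1 and 241.1 CPM in KO 1, KO 2 and KO 3, against 98.9, 4.62 and 46.6 CPM in WT 1, WT 2 and WT 3. WT 1 was above KO 2, so the labels overlapped, and WT 2 was far below all others. The SD of log2 CPM was 0.99 among KO libraries and 2.28 among WT libraries, where the median over all tested genes was 0.55 and 0.34. The log2 ratio was 2.13 ± 0.99 (SE), and it did not pass (edgeR quasi-likelihood, adjusted p = 0.244). It was 1.55 without WT 2 and 3.06 without WT 1.

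Adamts9, which cuts versican and aggrecan, rested on KO 3. Adamts9 (ENSMUSG00000030022, chromosome 6, 92772699 to 92943492, minus strand) was at 90.2, 30.0 and 259.3 CPM in KO 1, KO 2 and KO 3, against 46.4, 12.5 and 21.0 CPM in WT 1, WT 2 and WT 3. WT 1 was above KO 2, and KO 3 was far above the rest. The log2 ratio was 2.25 ± 0.83 (SE; edgeR quasi-likelihood, adjusted p = 0.169). Without KO 3 it was 1.13 and without WT 1 it was 2.88, and among the alternatives it passed with DESeq2 alone (adjusted p = 0.0364). Exons of A730049H05Rik on the other strand cover 9.18% of the Adamts9 exon bases, and those of Gm15737, with 17 reads in all, cover 2.82%. A730049H05Rik was at 9.09, 4.58 and 13.6 CPM in KO 1, KO 2 and KO 3, against 3.57, 0 and 1.06 CPM in WT 1, WT 2 and WT 3. Reads of such overlapping genes cannot be told apart here, because no source at hand states whether the counting used strand.

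Adamts15, a versican-cutting protease, went the other way. Adamts15 (ENSMUSG00000033453, chromosome 9, 30899155 to 30922452, minus strand) was at 17.1, 12.5 and 15.2 CPM in KO 1, KO 2 and KO 3, against 17.8, 69.9 and 45.3 CPM in WT 1, WT 2 and WT 3. The labels did not overlap, but WT 1 stood just above KO 1, and WT 2, the lowest library for 7 of the 9 tested members, was the highest for this one. Means were 14.9 ± 2.29 CPM under the knockout label and 44.4 ± 26.1 CPM under the wild-type label (SD, n = 3 each). The log2 ratio was -1.57 ± 0.48 (SE; edgeR quasi-likelihood, adjusted p = 0.130), and among the alternatives it passed with DESeq2 alone (adjusted p = 0.0351).

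Adamts8, the last of the proteoglycan-cutting branch, is the neighbour of Adamts15 on chromosome 9 (ENSMUSG00000031994, 30942562 to 30963838, plus strand). The genes lie head to head with 20.1 kb between them. Adamts8 was at 12.7, 9.84 and 17.2 CPM in KO 1, KO 2 and KO 3, against 9.63, 8.42 and 12.7 CPM in WT 1, WT 2 and WT 3. The labels overlapped, and the log2 ratio was 0.37 ± 0.34 (SE; edgeR quasi-likelihood, adjusted p = 0.531), with a 95% interval of 0.744 to 2.24 for the ratio. Whether Adamts8 and Adamts15 differ from each other in their response was not tested. An antisense gene, Gm29724, shares 10.6% of the Adamts8 exon bases and had 8 reads in all libraries together.

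**Figure D2:**
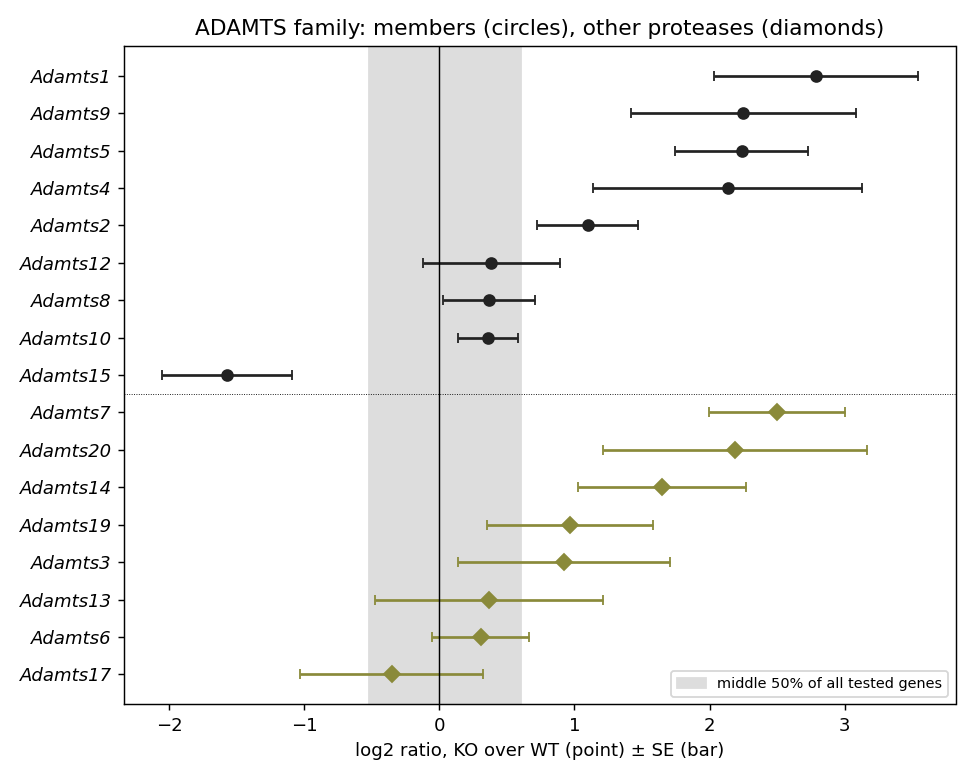
Log2 ratio of KO over WT (points) with its SE (bars) for the 9 tested members (circles, above the dotted line) and 8 other tested ADAMTS proteases (diamonds). The grey band is the middle 50% of all tested genes, from -0.52 to 0.60, and Adamts15 is the 1 member to the left of 0.

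Among members outside that branch, the procollagen-trimming gene Adamts2 had a higher estimate under the knockout label, with KO 1 the highest library. Adamts2 (ENSMUSG00000036545, chromosome 11, 50602084 to 50807573, plus strand) was at 90.5, 35.3 and 51.8 CPM in KO 1, KO 2 and KO 3, against 25.7, 24.0 and 33.4 CPM in WT 1, WT 2 and WT 3. The labels did not overlap, yet KO 2 exceeded WT 3 only slightly. The log2 ratio was 1.10 ± 0.38 (SE; edgeR quasi-likelihood, adjusted p = 0.151), and it was 0.66 without KO 1.

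Adamts10, the fibrillin-binding member, was the steadiest. Adamts10 (ENSMUSG00000024299, chromosome 17, 33524204 to 33553782, plus strand) was at 34.7, 29.7 and 33.1 CPM in KO 1, KO 2 and KO 3, against 27.0, 26.5 and 22.5 CPM in WT 1, WT 2 and WT 3. All KO libraries were above all WT libraries, by a small margin. The SD of log2 CPM was 0.11 among KO libraries and 0.14 among WT libraries, the smallest of the tested members in each label. The ratio was 1.28, the 95% interval ran over 0.893 to 1.84, and edgeR's quasi-likelihood test gave an adjusted p of 0.360. With Adamts1, Adamts2 and Adamts5 it made 4 of 9 members whose KO libraries all lay above the WT libraries, against 15.0% of all genes tested. Adamts15 was the 1 of 9 whose KO libraries all lay below, against 17.3%.

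Adamts12 and Adamts16 were the rare members. Adamts12 (ENSMUSG00000047497, chromosome 15, 11064790 to 11349231, plus strand) was at 6.32, 3.09 and 3.11 CPM in KO 1, KO 2 and KO 3, against 3.09, 2.03 and 4.48 CPM in WT 1, WT 2 and WT 3. The labels overlapped, with a log2 ratio of 0.39 ± 0.50 (SE; edgeR quasi-likelihood, adjusted p = 0.664) that was -0.039 without KO 1. Adamts16 (ENSMUSG00000049538, chromosome 13, 70727802 to 70841811, minus strand) had 0, 3 and 0 reads in KO 1 to KO 3 and 0, 1 and 4 reads in WT 1 to WT 3. It fell below the filter on low counts, and no difference was detectable at this depth.

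Levels can be compared between genes only per length, here as CPM per kilobase of the deposited gene length. Under the knockout label the order of mean levels began with Adamts1 at 84.6 ± 45.8 and Adamts4 at 45.7 ± 25.4 CPM per kilobase (SD, n = 3). Next came Adamts9 at 8.41 ± 7.90, Adamts2 at 6.34 ± 3.03 and Adamts10 at 5.96 ± 0.47. Their ranges of mean ± SD overlapped, and among KO libraries Adamts9 was above Adamts10 only in KO 3. Adamts5 at 3.57 ± 1.82, Adamts8 at 2.87 ± 0.80, Adamts15 at 1.44 ± 0.22 and Adamts12 at 0.382 ± 0.171 followed. Under the wild-type label Adamts1 at 12.3 ± 7.87 and Adamts4 at 10.4 ± 9.82 CPM per kilobase overlapped, and Adamts10 at 4.65 ± 0.45 and Adamts15 at 4.28 ± 2.52 came next. Adamts2 stood at 2.97 ± 0.54, Adamts8 at 2.22 ± 0.48, Adamts9 at 1.77 ± 1.17, Adamts5 at 0.757 ± 0.222 and Adamts12 at 0.293 ± 0.113. Adamts16 averaged 0.00837 and 0.0146 CPM per kilobase under the knockout and wild-type labels.

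The makeup of the family therefore differed between libraries. Adamts1 made up 53.6, 47.9 and 54.4% of the summed level of the 10 genes per kilobase in KO 1 to KO 3, against 33.3, 15.3 and 36.1% in WT 1 to WT 3. Adamts15 made up 0.768, 1.81 and 0.745% in KO 1 to KO 3, against 3.16, 30.9 and 10.3% in WT 1 to WT 3. In WT 2 Adamts15 held the largest share, and in the other libraries Adamts1 or, in WT 1, Adamts4 did. Adamts5 kept similar shares, at 1.93 to 2.57% under the knockout label and 1.69 to 2.31% under the wild-type label. Shares of 1 sum are bound to each other, so a larger Adamts1 share lowers the others, and no test was made on them.

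**Figure D3:**
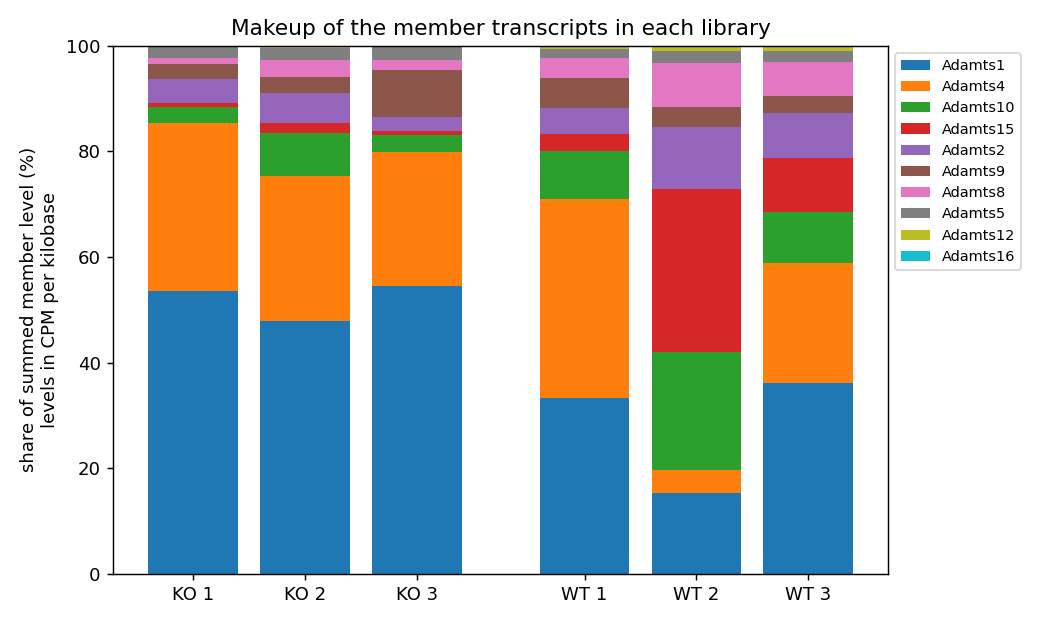
Share of each member in the summed level of the 10 genes (CPM per kilobase, bars stacked to 100%) in each library, KO on the left and WT on the right. Adamts1 (blue) fills 47.9 to 54.4% of the KO bars and 15.3 to 36.1% of the WT bars, and Adamts15 (red) fills 30.9% of WT 2.

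Libraries of 1 label were not alike. KO 1 had the highest CPM for 5 of the 9 tested members, KO 3 for 3 and WT 2 for 1, while WT 2 had the lowest for 7. Relative to the wild-type mean of log2 CPM, the members had medians of 1.72, 0.37 and 0.92 in KO 1, KO 2 and KO 3, against 0.10, -0.53 and 0.29 in WT 1, WT 2 and WT 3. KO 2 was also the library labelled knockout with the highest epithelial marker sum, 6406 CPM, and the part of epithelial content in the ADAMTS values was not tested. Fibroblast markers (7 of 7 genes with a positive log2 ratio) summed to 3505, 2494 and 1334 CPM in KO 1 to KO 3. In WT 1 to WT 3 these sums were 1134, 525 and 1162 CPM. Endothelial markers (6 of 6 positive) summed to 243 to 1037 CPM under the knockout label and 143 to 279 CPM under the wild-type label, and their part in the ADAMTS values was not tested either. Smooth muscle markers (1 of 6 positive) summed to 1523 to 5248 CPM under the knockout label and 3056 to 4516 CPM under the wild-type label. Macrophage markers (1 of 6 positive) summed to 277 to 900 CPM and 427 to 909 CPM in the same order. Neutrophil markers (6 of 7 positive) summed to 1371 to 6285 CPM under the knockout label and 482 to 2119 CPM under the wild-type label, with Ngp at 0 in WT 2. Their median log2 ratio was 4.06. The 1 with a negative ratio, Ly6g, made up 1704 of the 2119 CPM in WT 1, 472 of 482 in WT 2 and 898 of 951 in WT 3. Under the knockout label Ly6g was at 206.6, 832.3 and 10.7 CPM in KO 1, KO 2 and KO 3. T and B cell markers (2 of 6 positive) summed to 41.4 to 97.1 CPM and 49.9 to 138 CPM in that order.

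The promoters of the members that were higher at an unadjusted p under 0.05 are shown where RefSeq's table for GRCm38.p6 holds them. Shared control of these genes through their promoters was not tested. Of the 10 genes, 4 matched it: Adamts1, Adamts2, Adamts9 and Adamts12. Each window holds 250 bases before and 50 after RefSeq's start of the gene, 5′ to 3′ on the gene's strand, and for Adamts9 that start lies 42 bases upstream of the deposited one. They are Adamts1 at chr16:85803064-85803363 (minus), Adamts9 at chr6:92943485-92943784 (minus) and Adamts2 at chr11:50601835-50602134 (plus). Capitals mark the motifs found on either strand, where overlapping motifs run together.
Adamts1 promoter: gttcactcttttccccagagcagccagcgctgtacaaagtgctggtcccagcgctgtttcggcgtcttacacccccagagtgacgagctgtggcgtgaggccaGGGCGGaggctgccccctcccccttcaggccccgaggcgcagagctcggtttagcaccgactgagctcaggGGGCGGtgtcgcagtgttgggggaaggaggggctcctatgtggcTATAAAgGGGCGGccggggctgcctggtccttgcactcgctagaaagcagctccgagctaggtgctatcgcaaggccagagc
Adamts9 promoter: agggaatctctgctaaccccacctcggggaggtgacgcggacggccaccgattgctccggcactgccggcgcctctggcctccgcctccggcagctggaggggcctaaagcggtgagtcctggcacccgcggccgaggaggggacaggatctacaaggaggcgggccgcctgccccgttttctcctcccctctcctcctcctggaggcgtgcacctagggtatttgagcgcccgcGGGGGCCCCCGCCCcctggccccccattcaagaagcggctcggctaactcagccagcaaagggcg
Adamts2 promoter: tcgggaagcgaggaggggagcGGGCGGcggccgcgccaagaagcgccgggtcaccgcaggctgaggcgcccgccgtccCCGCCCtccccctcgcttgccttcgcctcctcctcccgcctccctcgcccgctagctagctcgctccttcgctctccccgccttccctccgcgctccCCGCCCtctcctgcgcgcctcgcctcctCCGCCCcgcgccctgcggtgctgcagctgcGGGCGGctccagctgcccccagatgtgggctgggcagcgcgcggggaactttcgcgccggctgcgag
The motifs searched on both strands were TGANTCA for AP-1, TGACGTCA for the cyclic AMP element, GGGCGG for the GC box, TATAAA for the TATA box, CACGTG for the E-box, and the NF-kB consensus. The Adamts1 window held 3 GC boxes and 1 TATA box, whose first base is 32 bases before the start. The Adamts2 window held 5 GC boxes, and the Adamts9 window held 1 GC box and 1 NF-kB match that overlap. The window of Adamts12 held none of the 6 motifs. Among 32817 windows of 300 bases, 35.6% held a GC box, 13.6% a TATA box, 8.46% an NF-kB match, 7.81% an AP-1 site, 7.15% an E-box and 1.79% the cyclic AMP element. GC content was 64.7% for Adamts1, 70.0% for Adamts9, 77.3% for Adamts2 and 62.0% for Adamts12, against a median of 52.7%.

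Most of the other 9 ADAMTS protease genes also had higher estimates under the knockout label. Of 8 tested, 7 had a positive log2 ratio, with a median of 0.95, against 53.1% positive and a median of 0.06 for all genes tested. By edgeR's unadjusted p under 0.05, 2 were higher, against 11.8% of all genes tested, and 0 lower, against 12.3%. Adamts7, which like Adamts12 cuts COMP, had the smallest p, at 66.9, 28.8 and 50.5 CPM in KO 1, KO 2 and KO 3, against 10.6, 3.86 and 11.4 CPM in WT 1, WT 2 and WT 3. Its labels did not overlap, and its log2 ratio was 2.50 ± 0.50 (SE; edgeR quasi-likelihood, adjusted p = 0.0940). Adamts14, a procollagen-trimming relative of Adamts2, had a log2 ratio of 1.64 ± 0.62 (adjusted p = 0.172 by edgeR), and Adamts20 one of 2.19 ± 0.98 (0.223). The 6 ADAMTS-like and papilin genes, which encode relatives without protease activity, had a median of 0.27 (-0.0066 without KO 1 and 0.096 without WT 2). At an unadjusted p under 0.05 by edgeR, 1 of the 6 was higher and 0 lower, beside the same 11.8% and 12.3%. That 1 was Adamtsl2, a fibrillin-binding protein gene, at 2.02 ± 0.68, and Papln at 1.99 ± 1.01 and Adamtsl5 at -0.59 ± 0.34 followed by p.

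Genes that activate, inhibit or clear the proteases had estimates in both directions. Of 4 proprotein convertase genes, with a median log2 ratio of -0.17, Pcsk5 was higher and Pcsk7 lower at an unadjusted p under 0.05. Of all genes tested, 11.8% were higher and 12.3% lower at that p by edgeR. Pcsk5 was at 37.0, 12.9 and 67.7 CPM in KO 1, KO 2 and KO 3, against 8.38, 6.01 and 7.90 CPM in WT 1, WT 2 and WT 3 (log2 ratio 2.40 ± 0.58, adjusted p = 0.100 by edgeR). Pcsk7 was at 41.5, 56.2 and 24.3 CPM in KO 1, KO 2 and KO 3, against 104.8, 124.9 and 95.7 CPM in WT 1, WT 2 and WT 3 (-1.41 ± 0.34, adjusted p = 0.100 by edgeR). The labels did not overlap for either gene, and Pcsk6 had a log2 ratio of -0.43 ± 0.34. All 5 tested inhibitor and clearance genes had a positive log2 ratio, with a median of 0.82, but Timp4 at 0.017 ± 0.70 (SE) showed no clear direction. At an unadjusted p under 0.05 by edgeR 2 were higher, against 11.8% of all genes tested. Timp1, a general metalloproteinase inhibitor gene, was at 95.3, 83.1 and 473.4 CPM in KO 1, KO 2 and KO 3, against 40.5, 4.30 and 15.4 CPM in WT 1, WT 2 and WT 3 (3.43 ± 1.03, adjusted p = 0.129 by edgeR). Timp3, whose product limits ADAMTS activity, was at 175.2, 194.8 and 119.4 CPM in KO 1, KO 2 and KO 3, against 212.9, 68.2 and 121.7 CPM in WT 1, WT 2 and WT 3. Its labels overlapped, with WT 1 the highest library and a log2 ratio of 0.28 ± 0.45 (adjusted p = 0.726 by edgeR). Timp2 had a log2 ratio of 0.82 ± 0.31, and the clearance receptor gene Lrp1 one of 1.07 ± 0.51.

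Genes of substrates and of hyaluronan partners mostly had higher estimates as well, with no gene past the adjusted threshold. Of 9 tested proteoglycan and hyaluronan genes, 7 had a positive log2 ratio and the median was 1.10. At an unadjusted p under 0.05 by edgeR 4 were higher, against 11.8% of all genes tested. This list joins proteoglycans with hyaluronan partners such as Cd44, so its values are not those of substrates alone. The log2 ratio was 2.50 ± 0.59 (SE) for the small proteoglycan gene Dcn, 1.06 ± 0.38 for its relative Bgn and 1.65 ± 0.61 for the hyaluronan receptor gene Cd44. Aggrecan (Acan) had 0 reads in all 6 libraries, and no difference was detectable at this depth. Vcan, which encodes versican, was at 150.5, 66.3 and 100.3 CPM in KO 1, KO 2 and KO 3, against 63.8, 24.4 and 59.4 CPM in WT 1, WT 2 and WT 3, a log2 ratio of 1.10 ± 0.45 (adjusted p = 0.195 by edgeR). All 5 tested fibrillar collagen genes had a positive log2 ratio, with a median of 1.02 (0.50 without KO 1). At an unadjusted p under 0.05 by edgeR 1 was higher, Col5a2 at 1.71 ± 0.41, against 11.8% of all genes tested. Col5a1 at 1.02 ± 0.47 and Col3a1 at 1.09 ± 0.52 came next by p. Of 9 microfibril and other glycoprotein genes, 8 had a positive log2 ratio and the median was 1.11. At an unadjusted p under 0.05 by edgeR 4 were higher, beside the same 11.8%. Among these Reln was at 1.86 ± 0.56, and the thrombospondin genes Thbs1 and Thbs2 were at 2.38 ± 0.72 and 1.34 ± 0.45.

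**Figure D4:**
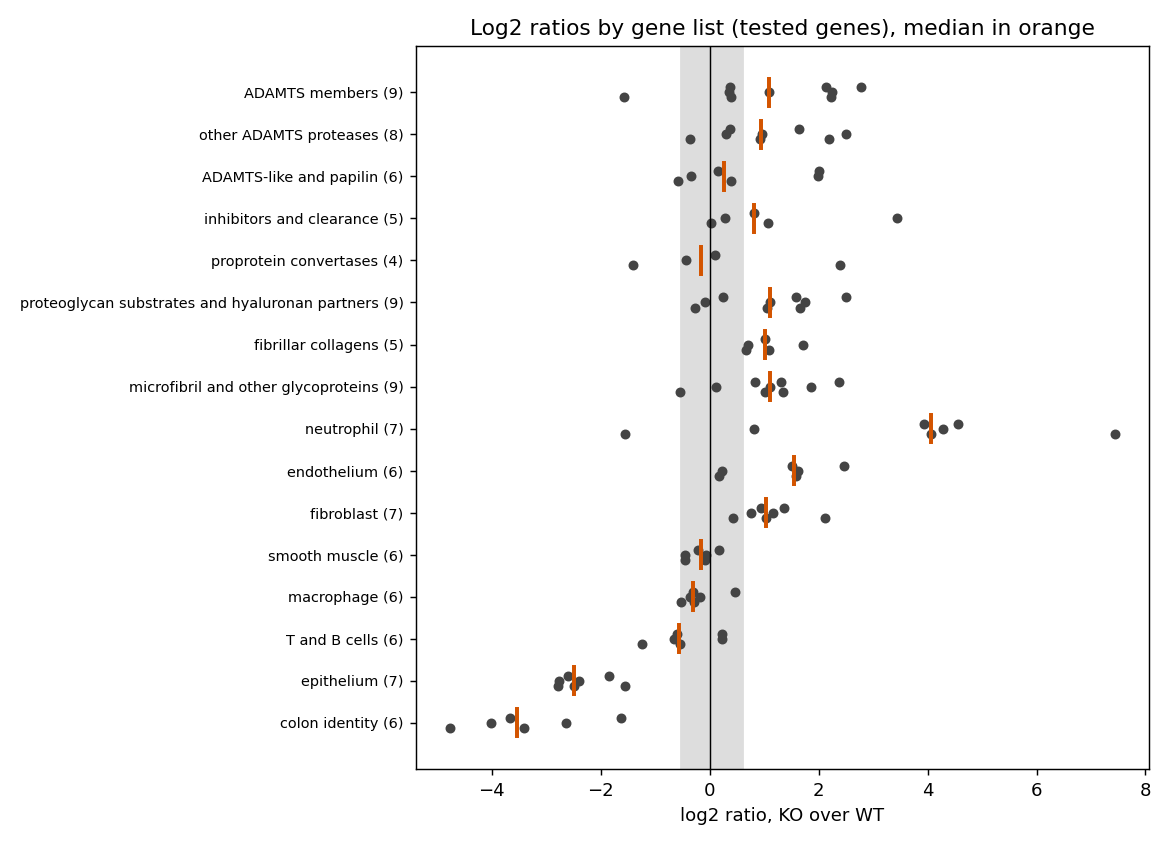
Log2 ratio of KO over WT for each tested gene (grey points, staggered for legibility) in 8 ADAMTS-related lists and 8 lists of cell markers, with the number of genes in brackets and the list median as an orange line. The grey band is the middle 50% of all tested genes. The member median was 1.10, and the lists of substrate and hyaluronan genes had medians of 1.02 to 1.11. Medians were 0.95 for other ADAMTS proteases, 0.82 for inhibitors and clearance, 0.27 for ADAMTS-like and papilin genes and -0.17 for convertases. Fibroblast markers had a median of 1.03 and endothelial markers one of 1.55. Neutrophil markers had the highest median (4.06), smooth muscle (-0.15), macrophage (-0.30) and T and B cell markers (-0.57) lay below 0, and epithelial (-2.49) and colon identity genes (-3.53) were the lowest.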

How the data were processed

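Raw counts per gene were deposited, 1 column per library, made by the authors from poly-A reads cleaned of adaptors and of poly-N or poor-quality reads (per the labels' protocols). The submitters' processing notes list, without roles, HISAT2 2.0.5, StringTie 1.3.3b, DESeq2 and featureCounts 1.5.0-p3, and the builds GRCm38 and mm10. Not given in the sources used here are the annotation release, the strand setting and how multiply mapping reads were treated. The deposited gene length in bases is the authors' value. Start and end of all 10 members matched GENCODE M21 on GRCm38.

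Analysis used R 4.3.3 and edgeR 4.0.16. filterByExpr (minimum count 10, minimum total 15) kept 16861 genes. TMM scaling was used, and edgeR's quasi-likelihood F test (robust, no covariates) compared the groups, with p-values adjusted by Benjamini-Hochberg over all tested genes. CPM divide counts by the TMM-adjusted library size over tested genes, log2 CPM uses a prior count of 2, and the SE is the log2 ratio over the square root of F. Alternatives were RLE and upper-quartile scaling, other filters, DESeq2 1.42.0, limma 3.58.1 voom, leaving out libraries, and a replicate block. Within each label, any pair of libraries differed well beyond sampling noise (chi-square per degree of freedom 50.7 to 253), so none was counted as a copy. On counts simulated for this comparison with the dispersion estimated per gene (16495 genes), true changes of 2-fold were found in 0 of 66 genes, of 4-fold in 8 of 66 and of 8-fold in 37 of 62, and 5 unchanged genes were called. Named genes were Itgbl1, all members and up to 3 genes with the smallest p from each related list. Vcan, Acan, Timp3, Timp4, Cdx2, Ngp, Ly6g and the genes that overlap members were named after their values were seen. Not all genes that overlap members are reported here. Members, lists and tests were chosen with earlier results of these data known.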

Additional observations from a re-analysis of the deposited data

How the results depend on the processing

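Counts of called genes depended on the tool. DESeq2 called 3 members higher (Adamts1, Adamts5, Adamts9) and 1 lower (Adamts15), among 779 higher (4.02%) and 1250 lower genes (6.45%). Voom with quality weights called 1 member higher (Adamts5), among 376 higher and 1019 lower genes of 16861 tested. It had 0 members lower at an unadjusted p under 0.05, against 15.4% of all genes tested. Unfiltered counts gave 29 higher and 163 lower genes of 30888 tested, and no member. Leaving out 1 library gave 0 to 2 members higher (2 without KO 2, Adamts1 and Adamts5) and 0 lower. Those fits called 0 to 460 genes higher and 0 to 1353 lower, the most without KO 2, where 17449 genes were tested. At an unadjusted p under 0.05 they had 2 to 5 members higher, against 5.58 to 13.9% of all genes tested. Without both KO 3 and WT 2, 2 members were higher (4.88% of all genes) and 0 lower (7.47%) at that p, the proteoglycan list's median was 0.34, and Adamts8 was at -0.016. Leaving out 1 library, the member median spanned 0.66 to 1.31, the proteoglycan median 0.68 to 1.36, the inhibitor median 0.44 to 0.90, the ADAMTS-like median -0.0066 to 0.48, the fibrillar collagen median 0.50 to 1.31, the microfibril median 0.66 to 1.39, Adamts4 1.55 to 3.06, Adamts9 1.13 to 2.88 and Adamts12 -0.039 (without KO 1) to 0.70. The other 7 tested members kept their direction in all 15 alternatives, and Adamts1 and Adamts5 had an unadjusted p under 0.05 in each. All alternatives reuse the same libraries, and the same counts over all genes tested were not made. Upper-quartile scaling shifted the median of all genes by 0.14, to 0.21. Relative to the median of all genes, the member median was 1.04 under that scaling and 1.04 under TMM. The split at an unadjusted p under 0.05 was 2673 higher and 1691 lower genes with upper-quartile scaling and 1992 and 2067 with TMM. Same-numbered libraries deviated with correlations of -0.20, 0.087 and -0.075, which show no pairing by number but cannot exclude one. The replicate block called 0 higher and 3 lower genes and no member. The cause of these changes was not tested. Depth limits Adamts16, with 8 reads in all.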
